A study of Arabidopsis thaliana with 75 samples.

Results

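The 10 genes described here belong to the XTH family of xyloglucan endotransglucosylase/hydrolases. They were chosen by locus: XTH14 (AT4G25820), XTH12 (AT5G57530), XTH13 (AT5G57540), XTH26 (AT4G28850), XTH17 (AT1G65310), XTH18 (AT4G30280), XTH19 (AT4G30290), XTH20 (AT5G48070), XTH33 (AT1G10550) and XTH31 (AT3G44990). All 10 were measured among the 21440 genes on the array, and 23 other XTH genes were measured beside them. The study placed 6 of the 10 in its core epidermal gene set, XTH14, XTH12, XTH13 and XTH26 as hair genes and XTH17 and XTH33 as non-hair genes. It chose them by comparing hairy lines with the hairless line cpc try on these same arrays. A difference of at least 2-fold in the same direction was required at both facilities. That comparison is therefore given for these 6 genes as a description only. XTH18, XTH19, XTH20 and XTH31 lay outside the core set.

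Xyloglucan is the main hemicellulose of the primary wall in Arabidopsis and coats and tethers cellulose microfibrils. XTH enzymes cut the xyloglucan backbone and join the cut end to another xyloglucan chain, or in some members to water, so that the wall can be remodelled while a cell grows. In the root epidermis this matters both for cells that elongate along the root and for hair cells, which push out a tip-growing tube. Cell fate is set by a complex of WER or MYB23 with GL3 or EGL3 and TTG1, which in non-hair cells turns on GL2, a repressor of hair genes, and CPC and TRY, small proteins that move to hair cells and block the complex there. RHD6 starts hair outgrowth, and ethylene and auxin can restore hairs in its absence.

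The study profiled epidermal cells of Arabidopsis seedling root tips on 75 Affymetrix ATH1 arrays, as 25 groups of 3 biological replicates, with 21 groups hybridized at Michigan and 4 at Duke. All lines carried the WER::GFP reporter, which the study describes as active in developing epidermis, more strongly in non-hair cells, and in the lateral root cap. GFP-positive cells were sorted from enzyme-digested tips, cut about 2 mm from the end, of pooled seedlings 5 days old. The Michigan groups were wild type (Columbia), cpc-1 try-82, wer-1 myb23-1, gl3-1 egl3-1, ttg1-13, gl2-1, rhd6-1, rhd6-1 treated with MS medium alone, with the ethylene precursor ACC or with the auxin IAA, and cobl9-1, cow1-3, csld3-1, ire1-2, lrx1-4, mrh1-1, mrh2-1, mrh3-3, myc1-1, rhd2-1 and bhlh66-1. The Duke groups were cpc try, wer myb23, gl3 egl3 and ttg, with no wild type. The labels name an ecotype for wild type only, and each line is 1 allele or allele pair, so an effect of the parental background cannot be told apart from that of the mutation. Below, wer myb23, gl3 egl3 and ttg, in which nearly all epidermal cells form hairs, are called the hairy lines.

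Array medians lay between 6.5 and 6.86 at Michigan and between 6.02 and 6.14 at Duke on the log2 scale, so levels were compared within a facility only. Of the 19 mutated genes on the array, 12 lay below wild type on every array of their own line, and 9 of these passed the test against wild type. MRH1 lay at 11.14 to 11.39 in the line labelled mrh1 against 9.28 to 9.77 in wild type (adjusted p = 0.358), and bHLH66 lay at 6.17 to 8.88 in the line labelled bhlh66 against 7.93 to 8.61 (adjusted p = 0.589). TRY lay higher in cpc try by 2.61 (adjusted p = 0.00124). It was not examined whether the probes of these genes lie in the altered part. In bulk RNA of sorted cells, fewer cells of a type and less transcript per cell cannot be told apart, and this holds for every value below.

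The 4 hair members lay higher on every array of the hairy lines than on any cpc try array. XTH14, an enzyme characterised from roots and known to be present at growing hairs, measured 7.09, 6.63 and 6.66 in the 3 cpc try arrays at Michigan, and in the 9 arrays of the hairy lines it measured 12.02 at the lowest, 12.4 at the median and 12.71 at the highest. The groups did not overlap, and the fitted difference was 5.60 ± 0.39 on the log2 scale (SE, 9 hairy arrays against 3), a 48.4-fold difference. XTH12, whose close relatives include XTH13 and XTH14, measured 5.34, 4.7 and 4.24 in cpc try and 9.2, 9.7 and 10.47 (lowest, median and highest) in the hairy lines, 5.05 ± 0.56 apart. Its groups did not overlap either. XTH13 measured 7.69, 4.89 and 4.77 in cpc try and 8.79, 9.6 and 10.55 in the hairy lines, a difference of 3.89 ± 0.56. Replicate 1 of cpc try, at 7.69, lay nearer to the hairy arrays than to the other cpc try arrays. XTH26, also an enzyme characterised from roots, measured 5.23, 4.36 and 3.77 in cpc try and 6.22, 7.62 and 9.04 in the hairy lines, 3.18 ± 0.63 apart. In this comparison 7.16% of all genes passed 1% FDR in limma, 4.41% higher and 2.75% lower in the hairy lines, and 7 of the 10 members did, 4 higher and 3 lower. Because 6 of the 7 were chosen on this contrast, nothing is read from that count. The 6 hair cell markers, which are PRP3, EXPA7, EXPA18, COBL9, RHD6 and LRX1, were all higher in the hairy lines, with a median of 5.17. These markers are also core genes that the study chose on this contrast, so their direction is a description only.

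**Figure D1:**
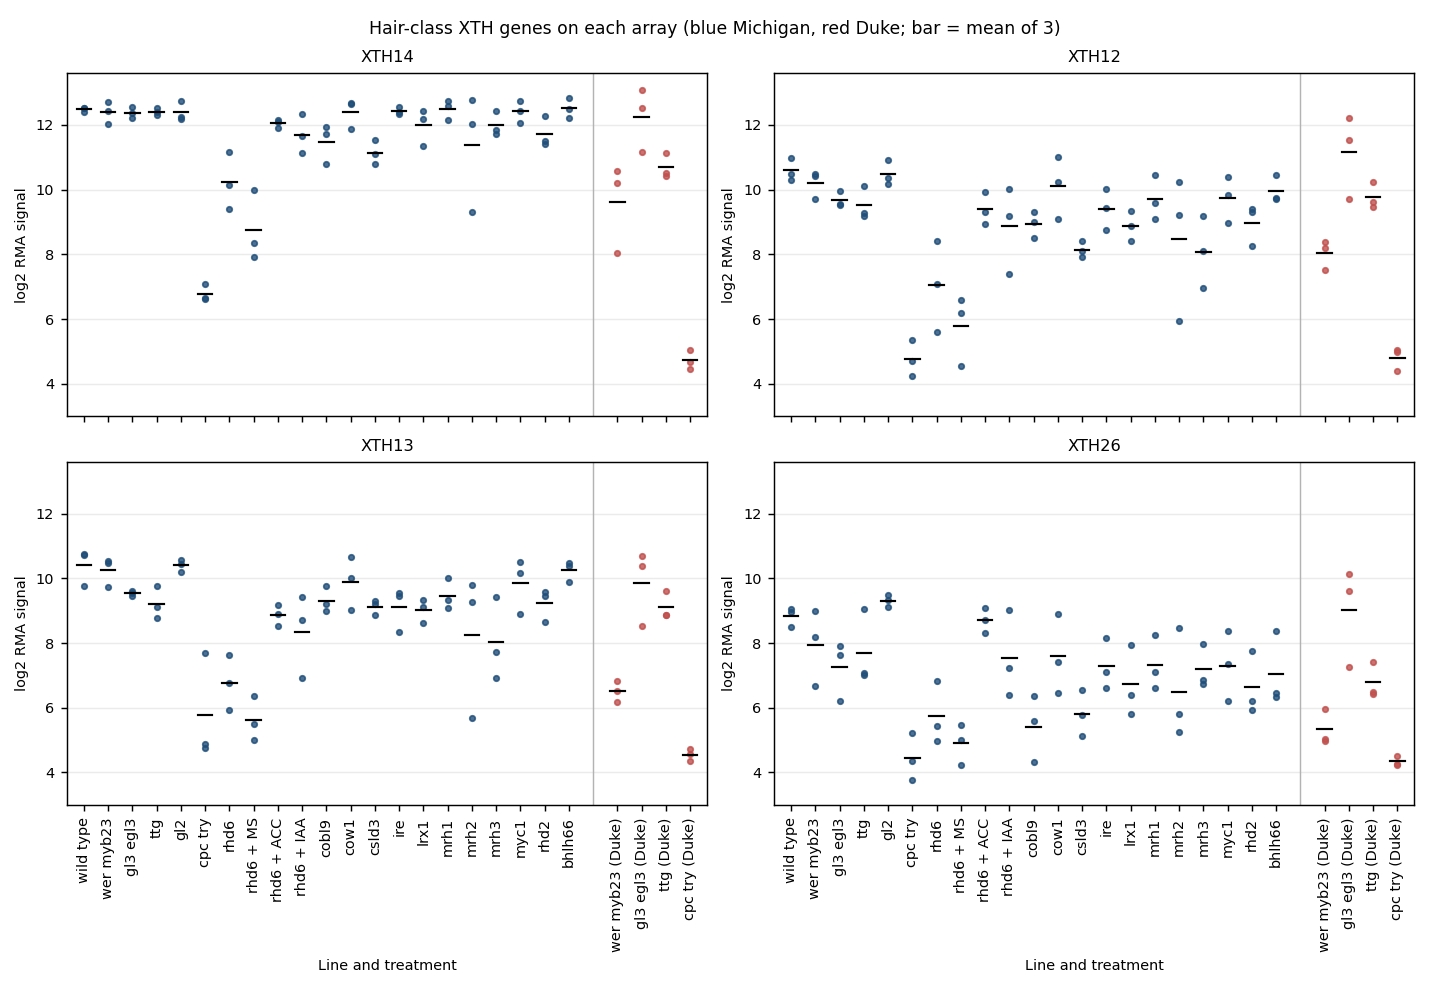
Log2 RMA signal (y axis) of XTH14, XTH12, XTH13 and XTH26 in each of the 25 groups (x axis). Each point is 1 array, blue for Michigan and red for Duke, and the bar is the mean of 3. All 4 genes are lowest in cpc try or in rhd6 on MS medium at Michigan, and wild type, the hairy lines and gl2 lie near the top for XTH14.

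The non-hair members ran the other way, with more scatter. XTH17, one of a group of closely related root XTH genes with XTH18, XTH19 and XTH20, measured 11.87, 11.28 and 10.61 in cpc try at Michigan, and 5.02, 9.33 and 11.11 (lowest, median and highest) over the hairy arrays. The groups overlapped, because replicate 2 of wer myb23, at 11.11, lay above replicate 3 of cpc try. The 3 gl3 egl3 arrays alone ran from 5.02 through 7.16 to 10.3. The fitted difference was -2.49 ± 0.51. XTH33, whose protein is unusual in the family in being held at the plasma membrane, measured 9.08, 8.02 and 7.24 in cpc try and 4.5, 5.86 and 7.18 in the hairy lines, with no overlap and a difference of -2.34 ± 0.44. Of the 4 non-hair markers GL2 (-3.58), TTG2 (-2.56) and ETC1 (-2.34) were lower in the hairy lines, and CPC, itself mutated in cpc try, differed by 0.03. GL2, TTG2 and ETC1 are core genes chosen on this contrast, so their direction too is a description only.

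Of the 4 members outside the core set, XTH18 passed the test in the hairy comparison and the other 3 did not. XTH18, for which reduced expression in Arabidopsis is known to shorten root epidermal cells, measured 12.38, 11.95 and 11.9 in cpc try and 10.33, 11.26 and 11.77 in the hairy lines. The groups did not overlap, and the level was lower in the hairy lines, with a difference of -0.95 ± 0.20 (limma, adjusted p = 0.000695), under a 2-fold change. Without replicate 1 of cpc try, which was the highest cpc try array for all of XTH17, XTH18 and XTH33, none of the 3 passed 1% FDR (XTH17 -2.18, adjusted p = 0.0108, XTH18 -0.80, adjusted p = 0.0206, and XTH33 -1.86, adjusted p = 0.0106). In a fit of these 4 lines alone XTH17 (0.0811) and XTH18 (0.0711) missed it as well. XTH19 differed by -0.14 (adjusted p = 0.635), XTH20 by 0.14 (adjusted p = 0.944) and XTH31, known from Arabidopsis as an enzyme with hydrolase activity, by -0.14 (adjusted p = 0.84).

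**Figure D2:**
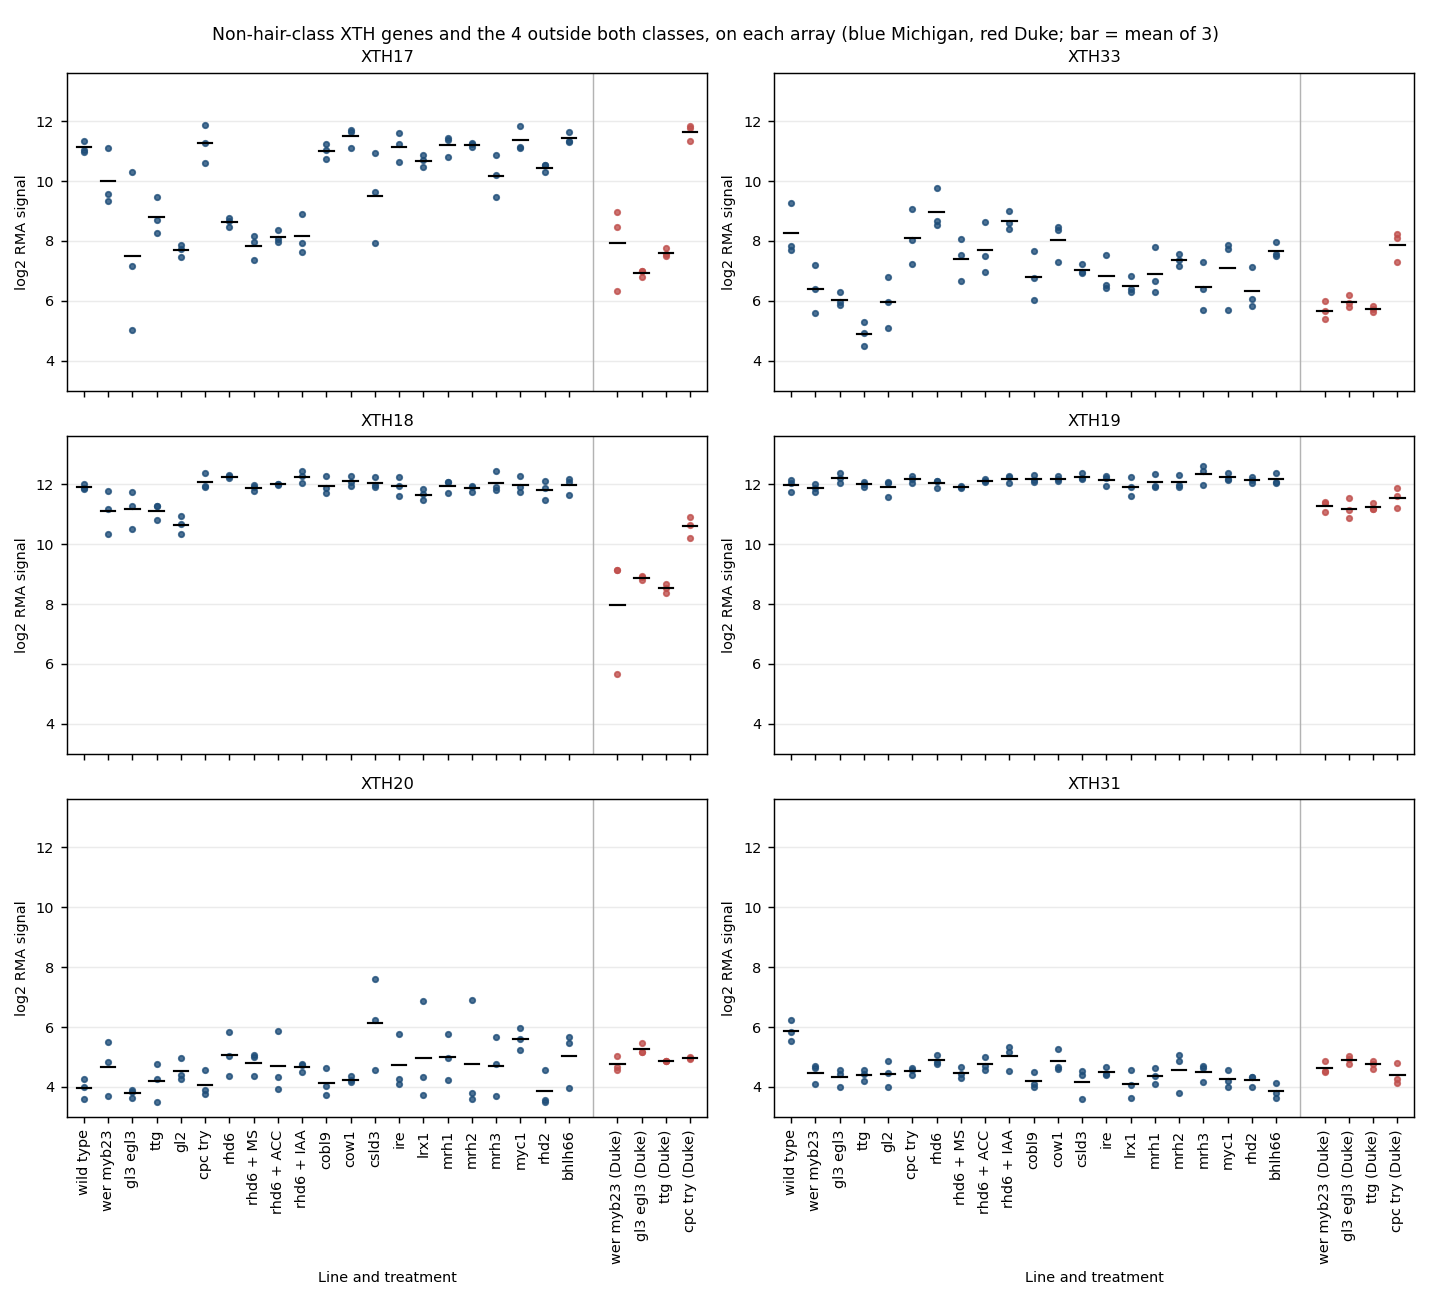
Log2 RMA signal (y axis) of XTH17, XTH33, XTH18, XTH19, XTH20 and XTH31 in each of the 25 groups (x axis). Points are single arrays, blue for Michigan and red for Duke, and bars are means of 3. XTH17 has its lowest array, 5.02, in gl3 egl3 at Michigan, XTH19 stays between 11.59 and 12.6 on all Michigan arrays, and XTH31 is highest in wild type.

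The Duke arrays gave the same comparison at a second facility. Because the study required the same direction at both facilities, the direction of the core genes at Duke was fixed by their choice. At Duke 3.46% of all genes passed 1% FDR, and 6 members did, again a description for the core genes. XTH14 measured 5.06, 4.47 and 4.67 in cpc try and 8.03, 10.57 and 13.07 (lowest, median and highest) in the hairy arrays, a difference of 6.11 ± 0.52. The differences of the other hair members were 4.84 ± 0.44 for XTH12, 3.96 ± 0.39 for XTH13 and 2.70 ± 0.51 for XTH26. Hairy and cpc try arrays did not overlap for any of the 4, but the hairy arrays were spread more widely than at Michigan. The XTH26 call was lost without any 1 of 10 of the 12 arrays (adjusted p between 0.0105 and 0.0567) and was kept when replicate 3 of gl3 egl3 or replicate 2 of wer myb23 was left out. XTH17 measured 11.34, 11.84 and 11.76 in cpc try and 6.33, 7.51 and 8.97 in the hairy arrays, which here did not overlap, a difference of -4.16 ± 0.43. The difference for XTH33 was -2.08 ± 0.20. XTH18 measured 10.22, 10.65 and 10.92 in cpc try and 5.66, 8.8 and 9.13 in the hairy arrays, a difference of -2.14 ± 0.60 that missed 1% FDR (adjusted p = 0.0541). Its lowest array was replicate 2 of wer myb23, at 5.66 against 9.12 and 9.13 in the other replicates, and without that array the difference was -1.76 (adjusted p = 4.04e-05).

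The differences at the 2 facilities were then tested against each other in 1 fit of all arrays, in which 2.33% of genes passed 5% FDR. No member did. The difference for XTH17 was 1.67 smaller in size at Michigan (SE 0.71, 95% interval 0.24 to 3.09, adjusted p = 0.266), that for XTH18 was 1.19 smaller (SE 0.46, adjusted p = 0.185), and each of the other 8 members moved by at most 0.51. These intervals leave room for unequal sizes. For the core members the same direction at both facilities was a condition of their choice, so this comparison is no replication of it.

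**Figure D3:**
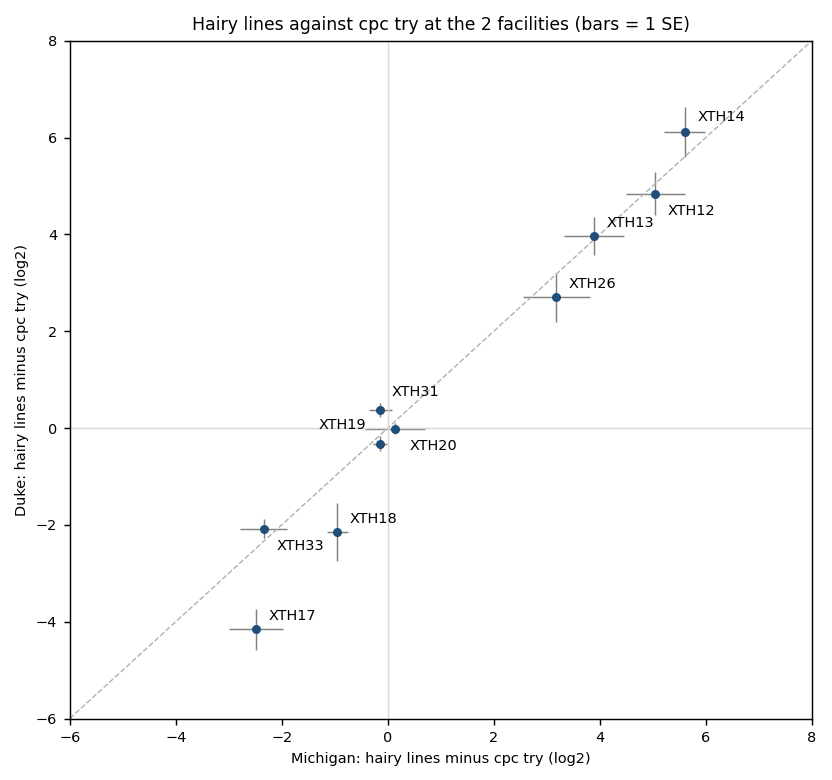
Hairy lines minus cpc try for the 10 members, as log2 differences at Michigan (x axis) and at Duke (y axis). Bars are 1 SE and the dashed line marks equal differences. XTH14 lies farthest up at 5.60 and 6.11, and XTH17 lies farthest below the line at -2.49 and -4.16.

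At Duke the 3 hairy lines differed widely over the whole array, and the hair members are given within that difference, a contrast examined after the values had been seen. XTH26 measured 10.14, 9.62 and 7.26 in gl3 egl3, 6.43, 6.49 and 7.43 in ttg, and 5.97, 5.04 and 4.98 in wer myb23. The wer myb23 arrays were the lowest and lay close to the cpc try range of 4.24 to 4.52. XTH13 measured 10.69, 10.39 and 8.54 in gl3 egl3, 8.87, 8.88 and 9.61 in ttg, and 6.52, 6.17 and 6.82 in wer myb23. Between gl3 egl3 and wer myb23, 48.3% of all genes passed 5% FDR, and 5 members did, all higher in gl3 egl3: XTH14 by 2.64, XTH12 by 3.14, XTH13 by 3.37, XTH26 by 3.67 and XTH20 by 0.52. This is about the share of all genes, so the count is no result about the members. Between ttg and wer myb23, 7.16% of genes passed, and XTH13 was the only member that did (2.62, adjusted p = 0.0102). Between ttg and gl3 egl3, 34.7% passed, with XTH26 (-2.22, adjusted p = 0.0216) and XTH20 (-0.41, adjusted p = 0.0316) among them, again no more than the share of all genes. The mean of the 6 hair markers was 8.73 to 10.59 on the gl3 egl3 arrays, 9 to 9.64 in ttg and 8.08 to 9.6 in wer myb23, and its part in the differences was not tested. At Michigan 0.149%, 1.71% and 0.854% of genes passed in the same pairs of lines, gl3 egl3 and wer myb23, ttg and wer myb23, and ttg and gl3 egl3, and no member did.

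Against wild type, cpc try was lower for the 4 hair members, while neither non-hair member passed. XTH14 measured 12.54, 12.39 and 12.52 in wild type, and XTH12 10.5, 10.3 and 10.99, above every cpc try array of both genes. In cpc try 2.93% of genes passed as lower at 2-fold and 5% FDR, and 5 members did: XTH14 by -5.69 (adjusted p = 3.08e-12), XTH12 by -5.84 (1.4e-08), XTH13 by -4.64 (3.03e-06), XTH26 by -4.39 (6.54e-05) and XTH31 by -1.32 (0.000879). XTH17 measured 11.05, 10.98 and 11.34 in wild type, within the cpc try range, and differed by 0.13 (95% interval -1.12 to 1.39, adjusted p = 0.976). XTH33, at 7.68, 7.82 and 9.25 in wild type, differed by -0.14 (adjusted p = 0.97). The non-hair markers GL2 (2.06), TTG2 (1.65) and ETC1 (2.33) were higher in cpc try than in the wild-type arrays. This and every other comparison with wild type below rest on the same 3 wild-type arrays. The cpc try and hairy-line arrays also served the study's choice of core genes. For core genes, comparisons of these lines with wild type are therefore no independent test.

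In the hairy lines no hair member passed against wild type, the largest of their differences being -1.60 for XTH26 in gl3 egl3 (adjusted p = 0.886), and the non-hair members passed in some lines. In ttg 0.644% of genes passed as lower, with XTH33 (5.3, 4.91 and 4.5, a difference of -3.35, adjusted p = 8.86e-05) and XTH31 (-1.46, adjusted p = 0.000963) among them. XTH17, at 9.45, 8.69 and 8.27 in ttg, lay below all wild-type arrays by -2.32 but missed the threshold (adjusted p = 0.0527). In gl3 egl3 0.14% of genes passed as lower, with XTH17 (-3.63, adjusted p = 0.00379) and XTH31 (-1.52, adjusted p = 0.00613) among them, while XTH33 differed by -2.21 (adjusted p = 0.0771). Both calls depended on single arrays. XTH17 was lost without gl3 egl3 replicate 1, its array at 5.02 (-2.39, adjusted p = 0.22), or replicate 3 (-3.46, 0.134), and XTH31 without gl3 egl3 replicate 1 (0.0755) or 3 (0.212) or wild type replicate 3 (0.116). Fitted with wild type alone, gl3 egl3 kept neither (0.551 and 0.453), and XTH17 passed in ttg (0.00755). In wer myb23 0.00933% of genes passed as lower and XTH31 was the only member among them (-1.38, adjusted p = 0.0448). That call was lost without wer myb23 replicate 1 (0.502) or 2 (0.118) or wild type replicate 2 (0.173) or 3 (0.68), and in a fit with wild type alone (0.543). XTH33 differed there by -1.86 (adjusted p = 0.39) and XTH17 by -1.12. The non-hair markers GL2, TTG2, ETC1 and CPC differed in wer myb23 by -0.31, -0.32, 0.49 and -0.39. In ttg they differed by -1.33, -0.56, 0.02 and -0.35, and none passed in either line. In gl3 egl3 GL2 (-2.9) and TTG2 (-1.84) passed, while ETC1 (-0.53) and CPC (-0.51) did not. Their mean ran from 5.65 to 8.74 over the gl3 egl3 arrays and from 7.95 to 8.58 over wild type. The part of these markers in the member values was not tested.

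The gl2 line asked which of these genes follow GL2, which acts below the fate complex. Its hair members did not pass against wild type, with differences of -0.10 for XTH14, -0.10 for XTH12, -0.01 for XTH13 and 0.46 for XTH26 (95% interval of the last -1.08 to 2.01). XTH17 measured 7.74, 7.47 and 7.85 in gl2, a tight group below every wild-type array. XTH18 measured 10.94, 10.67 and 10.34 in gl2 against 11.89, 12.02 and 11.83 in wild type. XTH33 measured 5.09, 5.95 and 6.8, again with no overlap. In gl2 0.117% of genes passed as lower at 2-fold and 5% FDR, and 4 members did: XTH17 by -3.43 (adjusted p = 0.00205), XTH33 by -2.30 (0.0482), XTH31 by -1.42 (0.00497) and XTH18 by -1.26 (0.0063). XTH17 passed whichever array was left out. XTH33 was lost without gl2 replicate 1 (-1.87, adjusted p = 0.522) or 2 (0.21) or any of wild type replicates 1, 2 and 3 (0.0678, 0.0913 and 0.73), XTH18 without gl2 replicate 3 (0.102) or wild type replicate 2 (0.0636), and XTH31 without gl2 replicate 2 (0.146) or wild type replicate 3 (0.106), and all 3 with gl2 and wild type fitted alone (0.227, 0.0844 and 0.145). Michigan arrays were grouped here into 3 array series, called numbered, S and x, and whether these are batches was not tested. The 3 gl2 and 3 wild-type arrays came 1 each from these series. Within them the gl2 difference was -3.3, -3.51 and -3.49 for XTH17 and -2.6, -1.87 and -2.44 for XTH33.

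Set against the hairless cpc try, 5.87% of genes passed in gl2, and 7 members did. These shared the cpc try arrays with the hairy comparison: XTH14 was higher by 5.59, XTH12 by 5.74, XTH13 by 4.62 and XTH26 by 4.85, and the differences were -3.57 for XTH17, -2.17 for XTH33 and -1.43 for XTH18. XTH33 was lost without cpc try replicate 1 (-1.68, adjusted p = 0.0684) or gl2 replicate 1 (-1.74, adjusted p = 0.0858), and with these lines fitted alone (0.0791). Between gl2 and the hairy lines 0.322% of genes passed and no member did. The largest member differences there were 1.67 for XTH26 (adjusted p = 0.455) and -1.08 for XTH17 (adjusted p = 0.69).

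The rhd6 line, which makes few hairs, was lower than wild type both for the hair members and for XTH17. XTH14 measured 10.13, 9.4 and 11.16 in rhd6, below all wild-type arrays and above all cpc try arrays. XTH12 measured 7.08, 5.61 and 8.42, and XTH13 6.76, 5.93 and 7.62. XTH26 measured 5.43, 4.97 and 6.82, so all 4 genes lay below wild type on every array. The share of all genes that did so in rhd6 was not counted. Over the 11 lines described last it was 8.27% of gene and line pairs. XTH17 measured 8.76, 8.68 and 8.46, the most even of the 5. In rhd6 1.43% of genes passed as lower at 2-fold and 5% FDR, and these 5 members did: XTH13 by -3.64 (adjusted p = 0.000467), XTH12 by -3.56 (0.000633), XTH26 by -3.11 (0.0137), XTH17 by -2.49 (0.0151) and XTH14 by -2.26 (0.00256). The 5 hair markers other than RHD6, which is the gene mutated here, were lower too, with a median of -3.36. XTH33 measured 8.52, 8.65 and 9.77 and differed by 0.73 (adjusted p = 0.863), and XTH18 differed by 0.34. XTH31 differed by -0.97 (adjusted p = 0.0452), short of 2-fold.

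XTH12 and XTH13 passed in rhd6 whichever array was left out. XTH14 was lost without rhd6 replicate 2 (-1.84, adjusted p = 0.0714). XTH26 was lost without rhd6 replicate 1 (0.0639) or 2 (0.144) or wild type replicate 2 (0.0579) or 3 (0.0645), and XTH17 without rhd6 replicate 2 (0.0601) or 3 (0.0768) or wild type replicate 1 (0.0577) or 3 (0.0745), and with array series as a term (-2.23, adjusted p = 0.0577). Within the 2 series that hold both lines, XTH17 differed by -2.26 and -2.88. XTH17 and RHD6 lie on chromosome 1, 89 measured genes apart. Of the 88 measured genes between them 5 passed in rhd6, which is 5.68% against 1.88% of all genes. EGL3 lies 145 measured genes from XTH17 on the other side, and 4 of the 144 genes between passed in gl3 egl3, which is 2.78% against 0.154% of all genes. The part of inherited flanking sequence in the XTH17 values was not tested.

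The hairless lines rhd6 and cpc try differed from each other. Here 2.78% of genes passed 2-fold and 2% FDR, and 2 members did. Both are core genes, chosen partly on these cpc try arrays. XTH14 was higher in rhd6 by 3.44 (adjusted p = 2.56e-06) and XTH17 was lower, with a difference of -2.62 (adjusted p = 0.00608). No array series holds arrays of both lines, and with series as a term the XTH17 difference was -1.81 (adjusted p = 0.319). XTH17 was also lost without cpc try replicate 1 (0.0341) or 2 (0.0292) or rhd6 replicate 2 (0.0261) or 3 (0.0402). XTH12 was higher by 2.28 (adjusted p = 0.0393) and passed only without rhd6 replicate 2 (3.00, adjusted p = 0.0135). XTH26 differed by 1.28 (adjusted p = 0.393).

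Treatment of rhd6 with ACC or IAA showed how far the hair members return when hairs are induced. XTH14 measured 7.93, 9.98 and 8.36 on MS medium alone, 12.14, 12.09 and 11.92 with ACC, and 12.33, 11.65 and 11.13 with IAA. Both treated groups lay above all MS arrays. XTH12 measured 4.56, 6.59 and 6.19 on MS medium, 9.32, 9.94 and 8.95 with ACC, and 10.02, 9.19 and 7.39 with IAA. XTH26 measured 4.23, 5.47 and 5.01 on MS medium, 8.71, 9.09 and 8.32 with ACC, and 9.01, 7.22 and 6.39 with IAA, again without overlap. With ACC 0.34% of genes passed as higher at 2-fold and 0.5% FDR, and 3 members did: XTH14 by 3.30 (adjusted p = 3.25e-05), XTH12 by 3.62 (0.00127) and XTH26 by 3.80 (0.00329). XTH13, at 5, 6.36 and 5.5 on MS medium and 8.9, 9.18 and 8.52 with ACC, differed by 3.25 and just missed (adjusted p = 0.00597). XTH14 passed whichever array was left out, whereas the adjusted p of XTH12 lay between 0.00574 and 0.0483 in the 4 of 6 cases that lost it and that of XTH26 between 0.00673 and 0.0484 in all 6. When the fit held the ACC and MS arrays alone, XTH14 (0.01) and XTH12 (0.00963) missed 0.5% FDR and XTH13 passed (0.00353) beside XTH26.

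**Figure D4:**
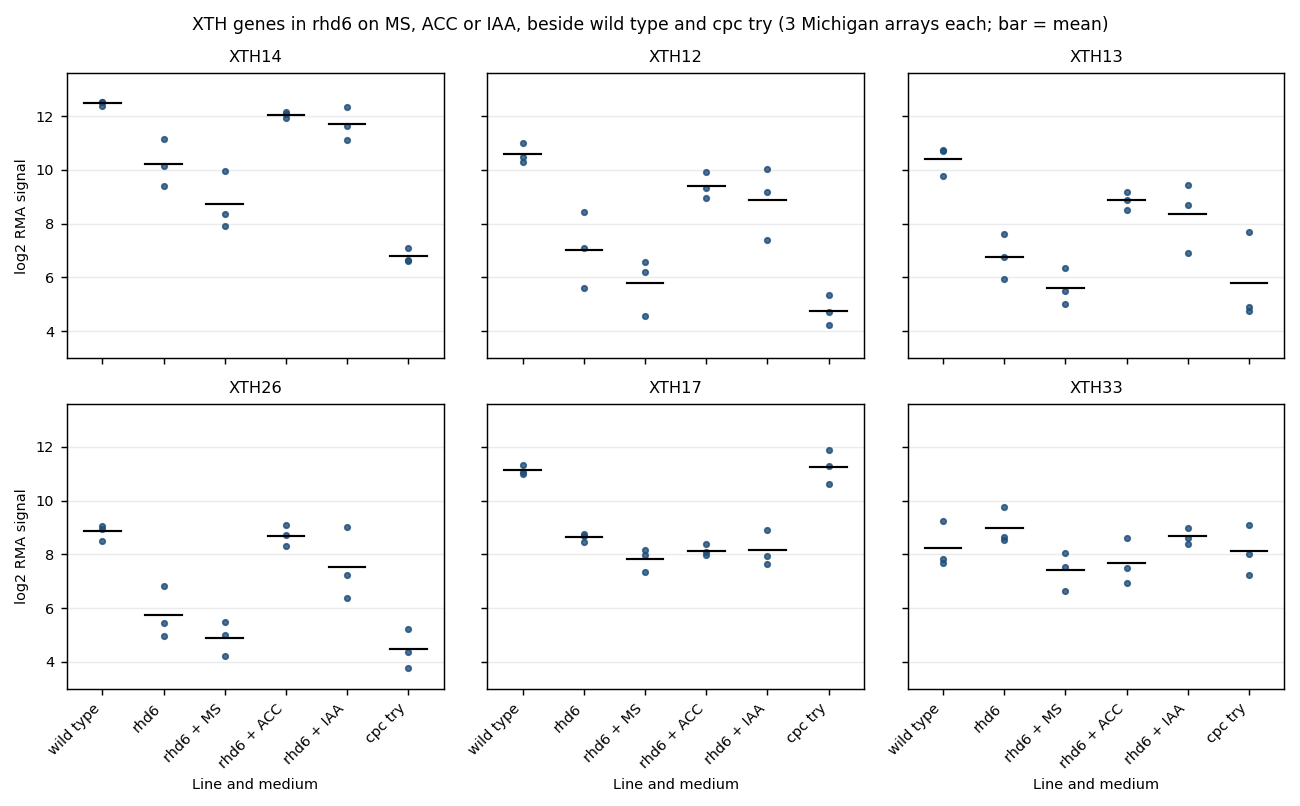
Log2 RMA signal (y axis) of XTH14, XTH12, XTH13, XTH26, XTH17 and XTH33 in wild type, rhd6, rhd6 on MS medium, rhd6 with ACC, rhd6 with IAA, and cpc try (x axis). Points are single Michigan arrays and bars are means of 3. The hair members are higher with ACC and IAA than on MS medium, while XTH17 lies between 7.36 and 8.9 on the 9 treated arrays.

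With IAA 0.135% of genes passed as higher and XTH14 was the only member among them (2.95, adjusted p = 0.00104). It was lost without IAA replicate 1 (0.0347), MS replicate 1 (0.0306) or MS replicate 3 (0.0289), and with the IAA and MS arrays fitted alone (0.129). XTH12 differed by 3.08 (adjusted p = 0.0148), XTH13 by 2.73 (0.0295) and XTH26 by 2.64 (0.0489). Replicate 3 with IAA was the lowest of its group for all 4 hair members, and without it XTH12 passed (3.82, adjusted p = 0.00352). IAA minus ACC, tested directly, was -0.35 for XTH14 (95% interval -1.32 to 0.62), -0.54 for XTH12, -0.51 for XTH13 and -1.16 for XTH26 (-2.71 to 0.38), with adjusted p of 0.992 for each and 3 genes past 5% FDR in all. The non-hair members did not pass with either hormone. XTH17 differed by 0.31 with ACC and 0.33 with IAA, and XTH33, at 8.05, 7.52 and 6.65 on MS medium and 8.39, 8.61 and 8.99 with IAA, by 1.26 with IAA (adjusted p = 0.13). MS medium minus the untreated rhd6 group was -1.47 for XTH14 (adjusted p = 0.078) and -1.57 for XTH33 (adjusted p = 0.0912). These rhd6 groups came from different array series. With series as a term, which rests on the few lines that span series and was chosen after seeing the data, the differences were -1.73 for XTH14 (95% interval -2.94 to -0.52, adjusted p = 0.297) and -1.13 for XTH33 (-2.43 to 0.17, adjusted p = 0.4).

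XTH31 was the member whose wild-type arrays all lay above every other Michigan array. The share of all genes with such a pattern was not counted. XTH31 measured 5.53, 5.82 and 6.22 in wild type, and the other 60 Michigan arrays lay between 3.58 and 5.34, all below the lowest wild-type array. The lowest group was the line labelled bhlh66, at 4.14, 3.63 and 3.81. The nearest group was rhd6 with IAA, at 5.34, 4.54 and 5.18. The gap of 0.84 between the means of rhd6 with IAA and of wild type was the widest between neighbouring groups for this gene. XTH31 was among the dimmer genes, at percentile 28.3 of mean levels, and it did not pass between the hairy lines and cpc try at either facility. Every XTH31 call rests on the same 3 wild-type arrays, 1 from each array series, and Duke has no wild type. Within the series, gl2 differed from wild type by -1.06, -1.84 and -1.36.

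The last 11 lines carried mutations in genes that mostly act in hair outgrowth, such as COBL9, a membrane-anchored wall protein, CSLD3, a cellulose synthase-like protein, LRX1, a wall leucine-rich repeat extensin, MRH2, a kinesin, MRH3, an inositol phosphatase, and RHD2, an NADPH oxidase. Over these lines 0.283% of all gene and line pairs passed as lower and 0.184% as higher at 2-fold and 5% FDR. Of the 110 member and line pairs 12 passed as lower and 0 as higher. XTH31 gave 8 of the 12, in cobl9, csld3, lrx1, the line labelled mrh1, mrh3, myc1, rhd2 and the line labelled bhlh66, with a median over the 11 lines of -1.61. Those in csld3, lrx1, mrh3 and bhlh66 passed whichever array was left out, but with only the line and wild type in the fit they were lost too (adjusted p = 0.0976, 0.908, 0.069 and 0.369), and myc1 was the XTH31 call that was kept. The other 4 were lost without single arrays: cobl9 was lost without wild type replicate 3 (adjusted p = 0.157), mrh1 without mrh1 replicate 1 (0.45) or 2 (0.0827) or wild type replicate 2 (0.0999) or 3 (0.461), myc1 without myc1 replicate 3 (0.175) or wild type replicate 3 (0.278), and rhd2 without rhd2 replicate 1 (0.114) or wild type replicate 2 (0.0652) or 3 (0.406). As lower, 2.02% of genes passed in csld3 and 1.02% in mrh3. XTH12 was lower in csld3 (7.92, 8.11 and 8.4, adjusted p = 0.0353) and mrh3 (6.97, 9.18 and 8.09, adjusted p = 0.0325), XTH13 in mrh3 (6.93, 9.43 and 7.72, adjusted p = 0.0454), and XTH26 in csld3 (6.54, 5.14 and 5.77, a difference of -3.03, adjusted p = 0.0206). Without wild type replicate 1, 2 or 3 the count of 12 became 10, 6 or 4. All arrays of these lines except csld3 replicate 3 share the array series of wild type replicate 1. Wild type replicates 2 and 3 come from other series, so line and array series cannot be fully told apart here.

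The study, with another test, SAM, counted XTH12, XTH13 and XTH26 as reduced in each of cobl9, ire, lrx1, mrh3, rhd2 and csld3. With limma only the calls above passed. In each of these lines every array of XTH12, XTH13 and XTH26 nevertheless lay below wild type. Over all genes 8.27% of gene and line pairs in the 11 lines did so, and the limit from array series given above applies. Single arrays decided most of the hair member calls in these lines. In mrh3, XTH12 and XTH13 were lost without mrh3 replicate 1 (-1.96, adjusted p = 0.2, and -1.84, adjusted p = 0.232), without replicate 3 (0.0529 and 0.0876), without each wild-type array, and with mrh3 and wild type fitted alone (0.0814 and 0.121). In csld3, XTH12 was lost without csld3 replicate 1 (0.17) or 2 (0.0575) or wild type replicate 2 (0.0932) or 3 (0.165), and XTH26 without csld3 replicate 2 (0.0591) or wild type replicate 2 (0.0882) or 3 (0.109). The csld3 arrays had hair marker differences with a median of -0.86, against -1.9 over the 4 hair members. The XTH26 difference was negative in 11 of 11 lines, between -3.43 and -1.24, and all 3 arrays lay below every wild-type array in 10 lines. Its largest difference, in cobl9 (6.35, 5.58 and 4.31), did not pass (adjusted p = 0.187). XTH14 moved least of the 4, with a median of -0.48 and a lowest value of -1.34 in csld3 (adjusted p = 0.0861).

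XTH33 had a median difference of -1.34 over the 11 lines, and in 7 of them every array lay below wild type, but none passed. XTH17 had a median of 0.03, XTH18 of 0.04 and XTH19 of 0.2. XTH20, a dim gene, had a median of 0.81 and measured 7.61, 4.56 and 6.25 in csld3 against 3.6, 4.25 and 4.01 in wild type (2.19, adjusted p = 0.0552). Without csld3 replicate 2 both XTH20 (2.98, adjusted p = 0.0175) and XTH17 (-2.33, adjusted p = 0.0361) passed there. Over all genes 8.27% of gene and line pairs had every array below wild type and 7.77% every array above, and among the member pairs these were 49 and 4 of 110. The lines share their wild-type arrays, so these pairs are not independent, and the limit from array series given above holds here too. The lateral root cap markers SMB, BRN1 and BRN2 had negative median differences in all 11 lines, from -1.11 to -0.15, and their part in the member values was not tested. In mrh2 the replicates fell apart: XTH12 measured 5.94, 9.22 and 10.24 and XTH14 9.3, 12.03 and 12.77, and the mean of the 6 hair markers was 7.99 on replicate 1 and 10.31 and 10.84 on the others.

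**Figure D5:**
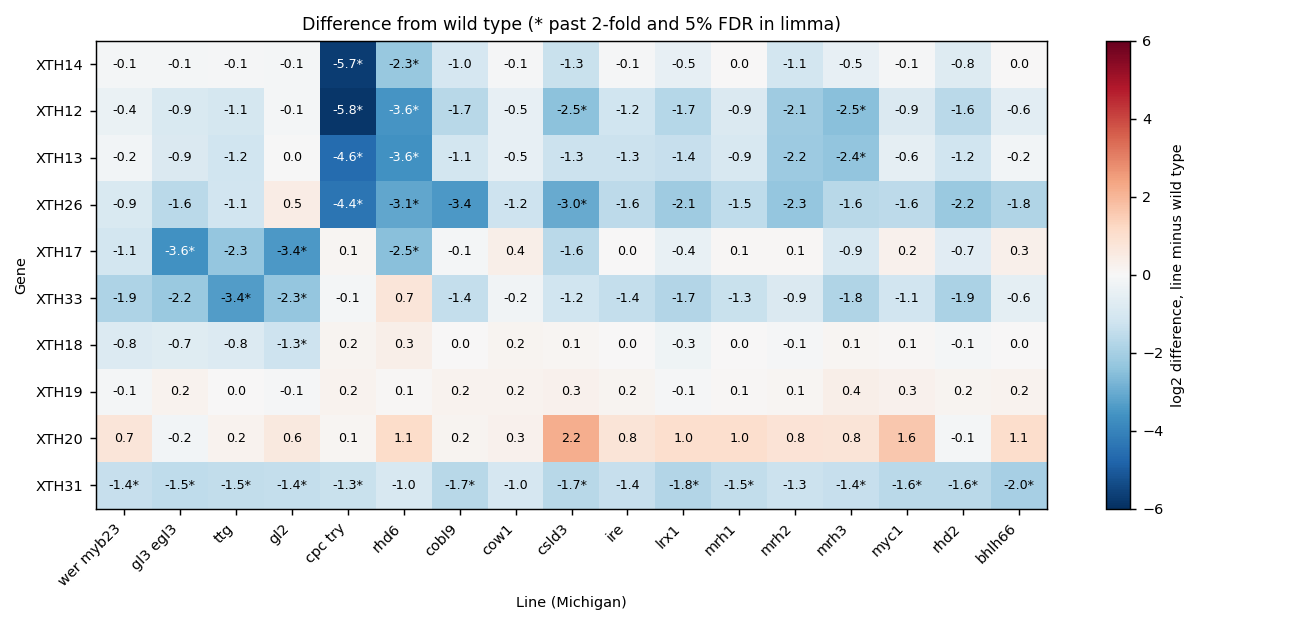
Log2 difference from wild type for the 10 members (rows) in the 17 other Michigan lines without treatment (columns), as colour and printed value. An asterisk marks a member past 2-fold and 5% FDR. The 4 hair members carry asterisks in cpc try and rhd6, XTH17 in gl3 egl3, gl2 and rhd6, and XTH31 in most columns.

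Ranked over the 21 Michigan groups, few neighbouring levels could be separated. The group means of XTH14 spanned 5.71, with a pooled SD within groups of 0.61, and 3 of its 20 gaps between neighbouring groups exceeded that SD. They set off cpc try at 6.79, rhd6 on MS medium at 8.75, rhd6 at 10.23 and the rest, which ran from csld3 at 11.14 to the line labelled bhlh66 at 12.51. XTH12 spanned 5.84 with an SD of 0.87, and XTH13 4.8 with an SD of 0.87, and 3 and 2 of their gaps exceeded the SD. XTH26 spanned 4.85, but no gap exceeded its SD of 0.98. XTH17 spanned 4 with an SD of 0.79 and no gap above it. XTH33 spanned 4.08 with an SD of 0.68, and its widest gap, 1.04, set off ttg at 4.9 from gl2 at 5.95. XTH18 spanned 1.6 with an SD of 0.3, XTH20 2.34 with an SD of 0.87, and XTH31 2 with an SD of 0.34. XTH19 was the most even, spanning 0.46 with an SD of 0.18, and its mean lay at percentile 99.4 of all genes. XTH18 and XTH19 lie next to each other on chromosome 4, and XTH12 and XTH13 lie close together on chromosome 5. Whether the probes separate such close relatives was not tested.

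The genes most like each member over the 21 Michigan group means were named by Pearson's r, as a description over points that share lines and arrays. XTH14 ran closest to RHS12, a putative pectin methylesterase (0.986), PERK13, a receptor-like kinase (0.984), and AT1G30870, a peroxidase (0.981). XTH12 ran closest to RHS18, a peroxidase (0.977), EXT12, an extensin (0.973), and AT3G49960 (0.972), and XTH13 to AT5G03640 (0.967), FLA6, a fasciclin-like arabinogalactan protein (0.966), and AT2G27440 (0.964). XTH26 had the cytochrome P450 CYP94D1 nearest (0.947), then AT5G10950 (0.902) and AT1G75160 (0.871). Among the members themselves r was 0.962 for XTH12 with XTH13, 0.948 for XTH14 with XTH12 and 0.782 for XTH14 with XTH26.

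The nearest genes to the other members were of mixed kinds. XTH17 ran closest to DR4 (0.911), AT1G28580 (0.885) and AT1G65370 (0.837), the last of which lies 4 measured genes from it. XTH33 ran closest to AT2G39040, a peroxidase (0.943), AT5G10770 (0.925) and RALF1, a peptide hormone (0.9). The non-hair members XTH17 and XTH33 did not run together, with r of 0.148, whereas r was 0.756 for XTH18 with XTH33. XTH18 was nearest to AT2G45220, a pectin methylesterase (0.952), PSK4, a phytosulfokine precursor (0.918), and AT3G25930 (0.914). XTH20 was nearest to PRK2A (0.911), AT2G29880 (0.903) and AT3G04990 (0.891), XTH19 to AT3G07790 (0.849), SAG21 (0.824) and NDL3 (0.823), and XTH31 to AT1G76250 (0.772), AT5G54890 (0.76) and AT1G30515 (0.735).

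The rest of the xyloglucan genes were set beside these. Of the 23 other XTH genes 0 were higher and 3 lower in the Michigan hairy lines when set against cpc try. Over all genes 4.41% were higher and 2.75% lower there. The median of the 23 was -0.49 against -0.03 over all genes. XTH9, known from Arabidopsis shoot growth, was lower, at -2.32 (adjusted p = 9.16e-08), as were XTH28 at -1.22 and XTH4 at -1.09. At Duke 0 of the 23 passed 1% FDR, against 3.46% of all genes, and for XTH9 the facilities differed (-2.16, adjusted p = 0.000565). Against wild type XTH9 was higher by 2.56 in cpc try and by 1.54 in csld3. Of the 15 genes of xyloglucan synthesis 2 were higher in the hairy lines at Michigan, against 4.41% of all genes. Both are among the study's core genes, chosen on this contrast, so nothing is read from that count. They were XUT1, which adds galacturonic acid to xyloglucan in root hairs, by 4.95, and CSLC12, a backbone synthase of the CSLC family, by 2.78. Against wild type XUT1 was lower in cpc try by -4.77 and in rhd6 by -2.85, and CSLC12 by -3.07 and -2.49. CSLC12 was higher with ACC by 2.40 (adjusted p = 0.0031). Of the 3 genes that trim xyloglucan side chains 1 passed anywhere, AXY8, which differed by -1.08 between gl2 and cpc try, where 5.87% of all genes passed.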

How the data were processed

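The deposited values were log2 signals that the authors had computed by RMA with quantile normalization, using 1 custom probe set per gene, on 63 Michigan and 12 Duke arrays. Versions were not given in the sources used here. Leaving out 64 control rows gave 21440 genes, 21222 of them named through TAIR10.1 RefSeq.

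For each facility 1 mean per group was fitted across all genes with limma 3.58.1 (R 4.3.3), and p-values were adjusted by Benjamini-Hochberg over all genes. The study used SAM, which was not run. The thresholds were 1% FDR for hairy lines against cpc try, and 2-fold and 5% FDR for lines against wild type and for gl2. They were 2-fold and 0.5% FDR for ACC and IAA, and 2-fold and 2% FDR for rhd6 against cpc try. They follow the study where it states them and are otherwise set here. For rhd6 against wild type and gl2 against cpc try the study states 2-fold, and the 5% FDR was added here. For gl2 against the hairy lines it states a fold below 2, so the threshold used here is stricter. The fit was tested on simulated data. Array number, with 3 per group, limits precision.

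The members and lists were chosen with earlier results of these data known. All 10 members are named, with the 3 genes most correlated with each and up to 3 called genes per list and direction. Alternatives covered the replicate block, groups fitted alone, a filter under the 25th percentile, median shift, quantile normalization, array series, each threshold alone and single arrays left out. Replicate numbers were not taken as pairs, although in wild type and gl2 they follow the same array series.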

Additional observations from a re-analysis of the deposited data

How the results depend on the processing

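Alternatives were followed for the 119 member results that were called or at least 2-fold in the main fit. Of their 1567 values, 1422 kept their side of the threshold, called or not, 129 lost the call and 16 gained it. None (0) changed sign, which choosing results by size made unlikely from the start. With only the groups compared in the fit, the members called fell to 5 for the hairy lines at Michigan, 0 in wer myb23, 0 in gl3 egl3, 1 in gl2, 0 with IAA and 3 lower over the 11 further lines, with 1 higher there. The count in wer myb23 was also 0 under median shift, quantile normalization and array series, that in gl3 egl3 was 1 under quantile normalization, rhd6 against cpc try had 1 with array series, and the filter on dim genes gave 1 higher call over the 11 lines. With 2-fold alone the counts were 3 in wer myb23, 4 in gl3 egl3, 6 in ttg, 5 with IAA, 2 between gl2 and the hairy lines, 4 for rhd6 against cpc try, and 48 lower and 5 higher over the 11 lines. The cause was not tested, beyond fewer arrays or a dropped criterion.

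Leaving out 1 array gave 4 to 7 members for the hairy lines at Michigan, 5 to 7 at Duke, 0 to 1 in wer myb23, 0 to 2 in gl3 egl3, 2 in ttg, 5 in cpc try, 2 to 3 in gl2, 2 to 5 in rhd6, 1 to 2 with ACC, 0 to 2 with IAA, 0 for gl2 and hairy lines, 0 between facilities, 1 to 2 for rhd6 and 6 to 7 for gl2 against cpc try, and 4 to 13 lower and 0 to 1 higher over the 11 lines. Without the gl3 egl3 arrays, a choice made after seeing the data, the Duke count was 5 (XTH26 1.72, adjusted p = 0.0114).

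Same-numbered arrays did not in general deviate together (median r 0.00601 over 210 Michigan group pairs and 0.139 over 6 Duke pairs). At Michigan r ran from -0.808 to 0.779, and in 20 of the pairs all 3 values exceeded 0.1. With replicate number as a block the counts were 7 for the hairy lines at Michigan and 5 at Duke (XTH26 lost, 0.0145), 1 in wer myb23, 2 in gl3 egl3, 3 in ttg (XTH17 gained, 0.0452), 5 in cpc try, 3 in gl2 (XTH33 lost, 0.0571), 5 in rhd6, 3 with ACC, 1 with IAA, 2 for rhd6 and 7 for gl2 against cpc try, and 11 lower over the 11 lines (XTH13 in mrh3 lost, 0.051).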
